A study of Mus musculus with 24 samples.

Results

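The nuclear-encoded respiratory chain genes are the subunits of complexes I to IV of the mitochondrial electron transport chain that are transcribed in the nucleus. They were taken by symbol from the table of single-nucleus RNA sequencing (snRNA-seq) counts: the Ndufa, Ndufb, Ndufc, Ndufs and Ndufv genes with Ndufab1 for complex I, Sdha to Sdhd for complex II, the Uqcr genes for complex III, and the Cox4 to Cox8 genes for complex IV, with names ending in -ps left out. This gave 67 of 33902 symbols, of which 37 belong to complex I, 4 to complex II, 8 to complex III and 18 to complex IV. Cox6c2 is annotated as a processed pseudogene, and Cox6c2 and Cox8b, a heart and muscle isoform, stayed under 10 counts in a library, which left 65 genes for the comparison of strains.

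The study profiled the ventral hippocampus of inbred mice. Nuclei of 2 strains, C57BL/6J (B6) and DBA/2J (D2), were sequenced for RNA, in 2 libraries per strain, and for open chromatin (snATAC-seq), also in 2 libraries per strain. The animals were adult males of 10 to 16 weeks, and each replicate pooled 2 animals. In the comparisons of strains, p-values therefore measure the spread between pools. Comparisons between cell types, also of their strain differences, come from fits over all 68 columns, in which each library enters once per cell type. Their p-values measure the scatter of cell types within libraries and not the spread between pools. For RNA, nuclei were stained for NeuN, a neuronal nuclear protein, and sorted to enrich neurons, so the share of neurons is not that of the tissue. The libraries are called 2 and 3 of each strain, as the table numbers them, whereas the sample labels number replicates 1 and 2, and which sample a column holds was not settled.

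The respiratory chain moves electrons from NADH and succinate to oxygen and pumps protons across the inner mitochondrial membrane, and ATP synthase uses the resulting gradient to make ATP. Complex I (NADH dehydrogenase), complex III (cytochrome bc1) and complex IV (cytochrome c oxidase) are built from subunits of both the nuclear and the mitochondrial genome, whereas complex II (succinate dehydrogenase) is wholly nuclear-encoded. Neurons depend heavily on this pathway, fast-spiking interneurons above all, and several complex IV subunits exist as isoforms with distinct tissue distributions. Nuclear-encoded subunit genes are also known for the many processed pseudogenes they left in the genome, which can compete for the same reads.

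The 4 RNA libraries held 43048686 to 56452272 counts from 6312 to 8707 nuclei, over 17 named cell types. Counts per nucleus ran from 2806 to 12182 in neuronal types and from 1780 to 4141 in the 5 non-neuronal types. The totals of a type in a library ran from 139713 counts in CR-CR to 11352265 in Exc-DG. Of 45 marker genes, 39 were highest in the type they mark. Cux2, taken as an entorhinal marker, was higher in Exc-Gpc6 than in Exc-ENT, where it reached only 2.33 CPM (counts scaled to a common library total), so Exc-ENT is used here as a name from the table and not as a checked identity.

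The mean summed level of respiratory chain transcripts was higher in each glial and interneuron type than in the excitatory types. The summed level of the 67 genes was 3116 ± 162 CPM in astrocytes (NN-Astro; SD, n = 4 libraries), 2864 ± 262 in oligodendrocytes (NN-ODC) and 2861 ± 127 in vascular and leptomeningeal cells (NN-VLMC). Interneurons of the medial ganglionic eminence (Inh-MGE), which include the parvalbumin cells, were the highest neurons with 2640 ± 271 CPM, ahead of those of the caudal eminence (Inh-CGE) at 2422 ± 304 and of Inh-Lamp5 at 2114 ± 104. The 8 excitatory types lay close together, with means of 1803 to 1972 CPM. Oligodendrocyte precursors (NN-OPC, 2113 ± 144 CPM) and microglia (NN-MGC, 2514 ± 385 CPM) stood between the other glia and the excitatory neurons, and Cajal-Retzius cells (CR-CR) had 1937 ± 215 CPM, within the range of the excitatory means. The summed level of the 3 Cajal-Retzius markers in CR-CR was 3777 and 4267 CPM in B6 but 2230 and 954 CPM in D2, and that of the 3 dentate granule markers was 202 and 164 CPM in B6 and 258 and 443 CPM in D2, so the content of this cluster differed between libraries. Neighbours in this order overlapped over libraries, astrocytes with oligodendrocytes and Inh-MGE with Inh-CGE among them. CPM here is a share of the nuclear RNA of a type, scaled over all 68 columns, so a high value does not mean more transcripts per cell. Neuronal RNA was also counted in the non-neuronal types: the summed level of 2 neuronal markers was 73.9 to 299.4 CPM there against 733.2 to 1739.1 CPM in the excitatory and inhibitory types, and that of 2 excitatory markers was 28.8 to 88.0 CPM against 205.4 to 440.8 CPM in the excitatory types. The part of such background RNA in the levels was not tested. Of the 67 genes, 17 had their highest mean in NN-VLMC, 16 in astrocytes, 15 in oligodendrocytes and 11 in Inh-MGE.

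**Figure D1:**
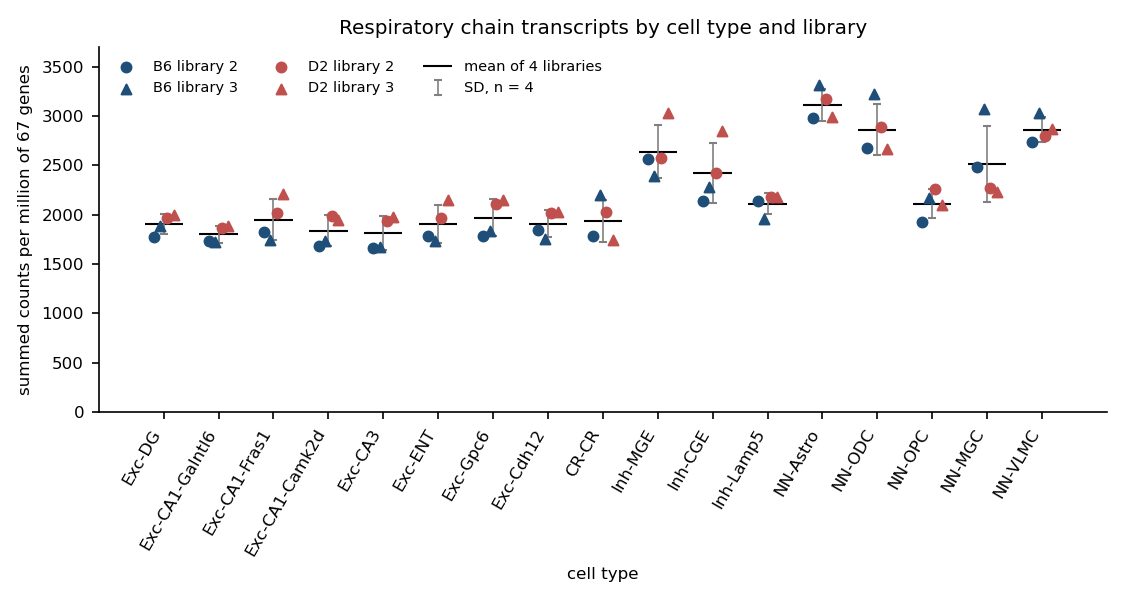
Summed CPM of the 67 respiratory chain genes in each of 17 cell types, with 1 point per library, the mean as a line and the SD over 4 libraries as a bar. Astrocytes sit highest at 3116 and the excitatory types between 1803 and 1972. In all 8 excitatory and all 3 inhibitory types both D2 libraries lie above both B6 libraries, narrowly in Inh-MGE and Inh-Lamp5, and in microglia (NN-MGC) both lie below. All types come from the same 4 libraries and are not independent.

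Averaged over types, neurons had lower levels than non-neuronal cells for 51 of 63 genes tested and higher levels for 5 (edgeR quasi-likelihood test within libraries, adjusted p under 0.05), where 34.8% of all 19198 symbols were lower and 34.6% higher. The median difference was -0.54 on the log2 scale for the genes of the chain and -0.01 for all symbols. Lower genes made up 29 of 37 in complex I, 4 of 4 in complex II, 6 of 8 in complex III and 12 of 14 in complex IV. Among complex I subunits, 26 of the 30 accessory ones were lower in neurons against 3 of the 7 core ones, which carry the redox centres, with medians of -0.59 and -0.15. Other lists moved with this one: 79 of 81 cytosolic ribosomal protein genes were lower in neurons with a median of -0.84, all 13 mitochondrially encoded subunits were lower with a median of -1.63, and 13 of 19 ATP synthase genes were lower. What part the composition of the nuclear RNA had in these differences was not tested.

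Uqcr11, a small subunit of complex III, and Ndufs8, a core iron-sulfur subunit of complex I, were lower in neurons by wide margins. Uqcr11 stood at 49.5 ± 12.7 CPM in NN-VLMC, 38.9 ± 8.82 in astrocytes and 38.7 ± 7.30 in oligodendrocytes but at 14.2 to 18.8 CPM in the excitatory types, a difference of -1.08 ± 0.09 (log2, SE, adjusted p = 4.99e-17). Ndufs8 differed by -0.88 ± 0.11 (adjusted p = 2.56e-11) and had its highest mean in oligodendrocytes, 21.1 ± 1.74 CPM. Ndufa10, an accessory subunit of complex I, went the other way. It reached 93.3 ± 11.3 CPM in CA3 neurons (Exc-CA3) and 80.1 ± 9.07 in Inh-MGE, against 36.5 to 55.5 CPM in the non-neuronal types, and was higher in neurons by 0.60 ± 0.05 (adjusted p = 1.60e-16). Ndufs4, an accessory subunit needed for complex I stability, was higher by 0.28 ± 0.04 (adjusted p = 1.38e-10) and Uqcrc1, a core protein of complex III, by 0.21 ± 0.07 (adjusted p = 0.00554). The call for Uqcrc1 was lost without D2 library 2, and Ndufv1, the NADH-binding core subunit, differed by 0.18 ± 0.07 (adjusted p = 0.0182).

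The complex IV isoforms had the widest differences between groups of cells. Cox6b2, known as the testis form of the subunit Cox6b, was 4.73 ± 0.40 lower in neurons on the log2 scale (adjusted p = 8.96e-17). Its level was 20.3 and 40.5 CPM in the B6 libraries and 26.3 and 49.2 CPM in the D2 libraries of NN-VLMC. In astrocytes it was 13.4 and 14.2 CPM in B6 and 23.3 and 24.2 CPM in D2. It stayed under 1 CPM on average in every excitatory and inhibitory type. Counted against its widespread partner Cox6b1, Cox6b2 made up 38.7% of the pair's counts in NN-VLMC, 26.4% in astrocytes, 22.1% in oligodendrocytes and 21.2% in their precursors, and no more than 4.96% in microglia, excitatory and inhibitory neurons. In Cajal-Retzius cells it made up 10.9%, from 7 counts.

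Cox6a2, the heart and skeletal muscle form of the subunit Cox6a, had its highest levels in interneurons. It stood at 10.3 and 7.32 CPM in B6 and 7.12 and 6.84 CPM in D2 in Inh-MGE, from 113 counts in all, and at a mean of 4.62 ± 2.07 CPM in Inh-Lamp5 and 1.25 ± 1.10 CPM in Inh-CGE. Every excitatory type had a mean under 1 CPM. Cox6a2 was 3.38 ± 0.38 lower in excitatory than in inhibitory neurons (log2, adjusted p = 6.49e-12) and 1.74 ± 0.37 higher in Inh-MGE than in the other interneuron types (adjusted p = 1.45e-04). It took 12% of the counts of Cox6a1 and Cox6a2 together in Inh-MGE and 9.73% in Inh-Lamp5, against at most 2.84% in any other type. The lower average of Cox6a2 in neurons than in non-neuronal types, -1.06 ± 0.36 (adjusted p = 0.00824), rested on 3 to 16 counts per non-neuronal type and was not called without B6 library 3.

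Cox7b2, a second form of Cox7b, had its highest share of a pair in astrocytes, 13.0% from 156 counts, followed by dentate granule neurons (Exc-DG) with 9.55%, and had 0 counts in microglia. Its average over neuronal types was 1.58 ± 0.51 above that over non-neuronal types (log2, adjusted p = 0.00509), although astrocytes, at 12.3 ± 2.65 CPM, were above every neuronal type, and the call was lost without B6 library 3. Cox4i2, the lung form of Cox4i1, reached 4.53 ± 4.28 CPM in NN-VLMC, and Cox7a1, the muscle form of Cox7a2, reached 3.72 ± 2.94 CPM there, each with an SD close to its mean. The widespread partners differed less: Cox4i1 ranged from 69.7 ± 20.8 CPM in Exc-CA1-Galntl6 to 169.0 ± 40.8 in oligodendrocytes.

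**Figure D2:**
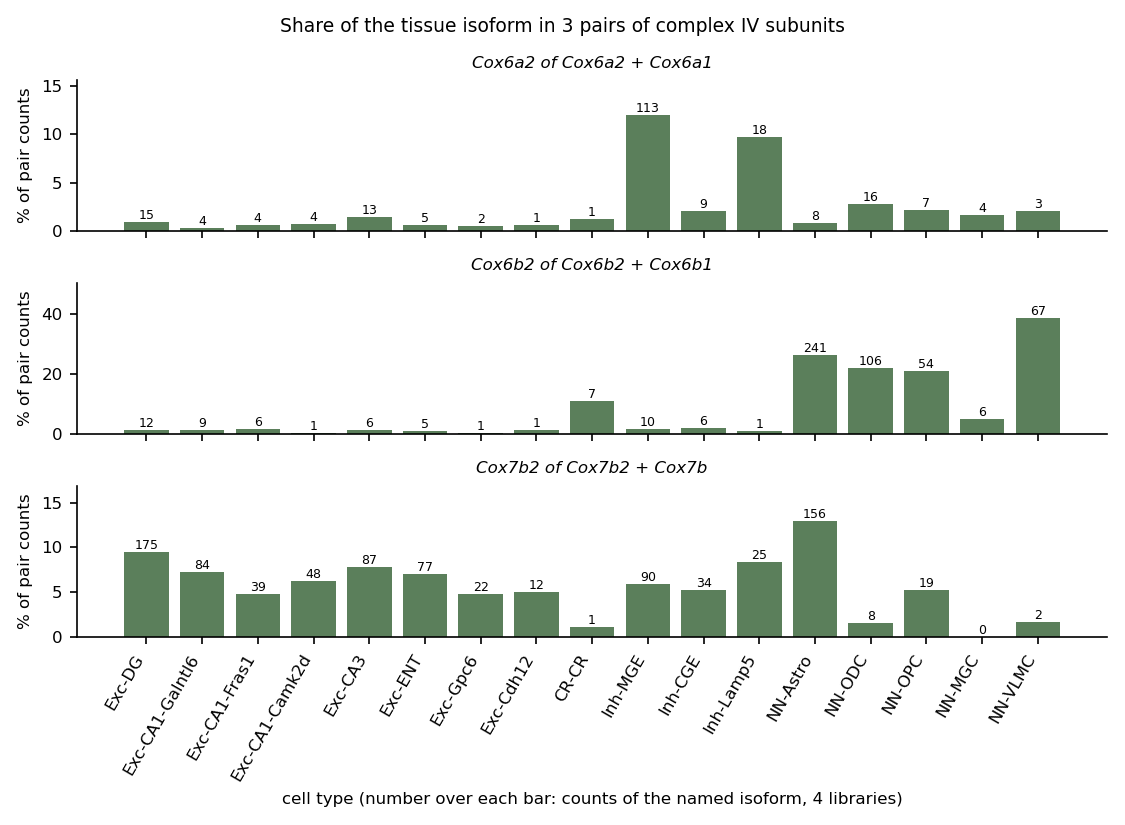
Share of the tissue isoform among the summed counts of both isoforms for 3 complex IV subunits in 17 cell types, as a percentage, with the counts of the tissue isoform over each bar and no correction for length. Cox6a2 peaks at 12% in Inh-MGE, Cox6b2 at 38.7% in NN-VLMC and Cox7b2 at 13.0% in astrocytes.

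Among neurons, the chain was lower in excitatory than in inhibitory types. Of 63 genes, 51 were lower and 1, Ndufs3, a core subunit of complex I, was higher (0.21 ± 0.08, adjusted p = 0.0192), where 27.3% of all symbols were lower and 25.8% higher. The Ndufs3 call was lost without B6 library 2 and without D2 library 2. The median was -0.39 for the members and -0.01 for all symbols. Besides Cox6a2, the widest differences were in 2 accessory subunits of complex I, Ndufa8 at -0.98 ± 0.11 (adjusted p = 1.16e-11) and Ndufa11 at -0.71 ± 0.10 (adjusted p = 2.66e-09), and in Ndufa4, which is counted here in complex I by its symbol although it is now placed in complex IV, at -0.76 ± 0.07 (adjusted p = 3.74e-14). Ndufa4 stood at 74.2 ± 12.8, 66.4 ± 18.5 and 65.4 ± 10.3 CPM in Inh-MGE, Inh-CGE and Inh-Lamp5, and at 34.8 to 48.1 CPM in the excitatory types. ATP synthase genes were lower in excitatory neurons in 17 of 19 cases, cytochrome c (Cycs) was lower by 0.54 ± 0.12 (SE) on the log2 scale (adjusted p = 5.91e-05), and 62 of 81 ribosomal protein genes were lower.

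Within interneurons, the chain was higher in Inh-MGE for some of its genes. In Inh-MGE, 16 of 63 genes were higher than in Inh-CGE and Inh-Lamp5 and 0 were lower, against 11.4% and 8.07% of all symbols; the median was 0.21 against 0.03 for all symbols. Without B6 library 2, the count of higher genes was 8. At an unadjusted p under 0.05 there were 20 genes in either direction, and DESeq2 gave 15 higher and 0 lower. After Cox6a2, the widest differences were in Ndufc1, an accessory subunit of complex I (0.63 ± 0.17, adjusted p = 0.00431), Ndufa12, also accessory (0.62 ± 0.12, adjusted p = 3.23e-05), and Cox5a, a matrix-side subunit of complex IV (0.57 ± 0.11, adjusted p = 5.48e-05). The Ndufc1 call was lost without B6 library 2. Cycs was higher in Inh-MGE by 0.75 ± 0.17 (adjusted p = 6.28e-04), and 7 of 19 ATP synthase genes were higher with 0 lower. Ppargc1a (PGC-1 alpha), the coactivator that drives mitochondrial biogenesis, was higher by 1.84 ± 0.10 (adjusted p = 1.43e-23), and its partner receptor Esrrg by 0.79 ± 0.10 (adjusted p = 9.73e-10). Of ribosomal protein genes 0 of 81 were higher and 3 were lower, and of mitochondrially encoded genes 0 of 13 were called.

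Dentate granule neurons differed from the other excitatory types in both directions. In Exc-DG, 10 genes were higher and 5 lower, against 27.0% and 22.4% of all symbols, with a median of 0.02; RLE scaling gave 8 higher and 7 lower, and no filter on low counts gave 11 and 2. The higher genes included Cox7b2 (0.51 ± 0.19, adjusted p = 0.0215, lost without D2 library 2 or D2 library 3), Ndufv3, an accessory subunit of the NADH-binding module (0.43 ± 0.07, adjusted p = 1.04e-06), Cox6c (0.42 ± 0.09, adjusted p = 2.27e-05) and Ndufs3 (0.41 ± 0.07, adjusted p = 1.44e-06). Ndufc2, an accessory subunit of the membrane arm, was lower (-0.36 ± 0.07, adjusted p = 7.61e-06), as were Uqcrc1 (-0.24 ± 0.07), Cox5a (-0.20 ± 0.08) and Cox7b, whose calls were lost without D2 library 2. All 13 mitochondrially encoded genes and 53 of 81 ribosomal protein genes were higher in Exc-DG.

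Between the strains, most genes of the chain that differed were higher in D2. With counts summed over cell types, 25 of 65 genes were higher in D2 and 3 were lower (edgeR quasi-likelihood test, adjusted p under 0.05). DESeq2 called 19 higher and 2 lower, and without D2 library 3 there were 13 higher and 2 lower. Of all 25728 symbols tested, 30.7% were higher and 16.0% lower, and many of the higher symbols have no B6 counts at all. Restricted to the 21549 symbols that both strains counted, the fit called 3318 higher and 3536 lower, and the chain gave 21 higher and 3 lower. The median of the chain was 0.19, with 51 of 65 genes above 0, and the median of all symbols was 0.09, or 0.01 among symbols counted in both strains. Scaled to library totals alone, the chain as a whole took 1810 and 1903 CPM in B6 and 2052 and 2169 CPM in D2. The share of counts from non-neuronal types was 13.3% and 15.2% in B6 and 13.8% and 17.6% in D2. In sums over nuclei, more cells of a type and more RNA per cell cannot be told apart.

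In complex I, 14 of 37 genes were higher and 1 was lower, with 13 of the 30 accessory subunits and 1 of the 7 core subunits, Ndufs7, among the higher ones. Ndufa13 (GRIM-19), an accessory subunit also known as a cell death regulator, stood at 31.5 and 30.8 CPM in B6 and 44.1 and 46.7 CPM in D2. Both D2 libraries were above both B6 libraries, with a difference of 0.54 ± 0.07 (log2, SE, adjusted p = 2.51e-05). The whole of Ndufa13 lies on the same strand inside the annotated span of Yjefn3, which had 1074 B6 and 896 D2 counts. Next among the higher subunits came Ndufs7 (0.41 ± 0.09), Ndufb3 (0.41 ± 0.08) and Ndufv3 (0.40 ± 0.09), and none of the 4 overlapped between strains.

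In complex II, both membrane anchors were called and neither catalytic subunit was. Sdhc was at 15.5 and 17.5 CPM in B6 and 23.5 and 24.6 CPM in D2, a difference of 0.54 ± 0.09 (adjusted p = 1.69e-04). Sdhd was at 8.69 and 8.30 CPM in B6 and 10.4 and 11.4 CPM in D2, a difference of 0.35 ± 0.11 (adjusted p = 0.0164). The flavoprotein Sdha was at 73.7 and 77.5 CPM in B6 and 82.0 and 80.8 CPM in D2 and did not pass (0.11 ± 0.07, adjusted p = 0.22). The iron-sulfur subunit Sdhb overlapped between strains, at 30.8 and 30.4 CPM against 30.6 and 32.4 CPM. The Sdhd call was lost with DESeq2, without B6 library 3 and without D2 library 3.

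In complex III, 3 of 8 genes were called, all higher in D2 and all small accessory subunits. Uqcrb was at 14.9 and 17.6 CPM in B6 and 21.9 and 22.7 CPM in D2, a difference of 0.45 ± 0.10 (adjusted p = 0.00135). Uqcrq (0.45 ± 0.08) and Uqcr10 (0.44 ± 0.09) differed by as much, and the core proteins Uqcrc1 and Uqcrc2 and the Rieske protein Uqcrfs1 did not pass. Neither did the small subunits Uqcr11 (0.29 ± 0.12, adjusted p = 0.0513) and Uqcrh (0.10 ± 0.08, adjusted p = 0.329).

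In complex IV, 6 of 16 genes were higher and 2 were lower. Cox5a was at 32.5 and 35.3 CPM in B6 and 49.2 and 52.9 CPM in D2 (0.59 ± 0.08, adjusted p = 1.65e-05), and Cox7b at 48.6 and 47.2 against 66.2 and 65.3 CPM (0.46 ± 0.07, adjusted p = 5.98e-05). Cox6b2 was at 1.79 and 2.20 CPM in B6 and 2.80 and 3.96 CPM in D2 (0.75 ± 0.20, adjusted p = 0.00643), a call that was lost without D2 library 3 and with neuronal types alone. The lower genes were Cox4i1 and Cox6a2. Cox6a2 was at 1.47 and 1.25 CPM in B6 and 0.92 and 0.70 CPM in D2 (-0.73 ± 0.24, adjusted p = 0.0203) and was not called by DESeq2, without B6 library 2 or without D2 library 3. Cox6a1 and Cox8a, the widespread forms, were higher in D2 by 0.32 ± 0.07 and 0.24 ± 0.07, as was Cox7a2 by 0.24 ± 0.09. Cox6b1 (0.21 ± 0.09, adjusted p = 0.0649), Cox4i2 (0.02 ± 0.32), Cox7a1 (0.05 ± 0.31) and Cox7a2l (-0.03 ± 0.09) did not pass.

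**Figure D3:**
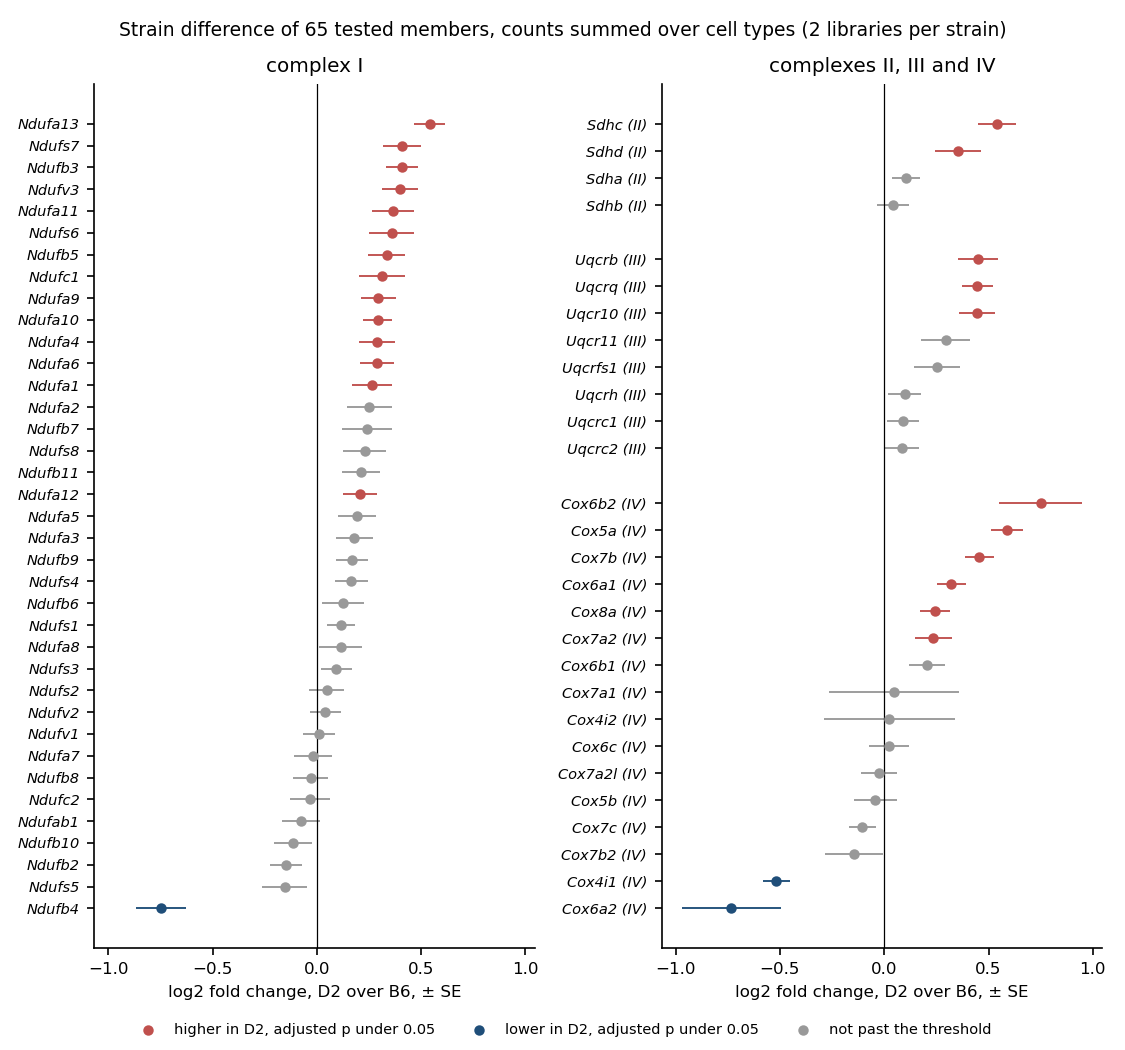
Log2 fold change of D2 over B6 for the 65 genes tested, with SE bars, for complex I (left) and complexes II, III and IV (right), with red points higher and blue points lower in D2 at an adjusted p under 0.05. Most points lie right of 0, and Ndufb4 at -0.75, Cox6a2 at -0.73 and Cox4i1 at -0.52 stand apart on the left.

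Within single cell types, 123 of 1000 tests of a gene in a cell type were higher in D2, near the background of 12.9% of all tests, and 20 were lower, where the background was 9.25%. The 12 neuronal types held 118 of the higher calls in 701 tests, against 14.1% of all symbols, and the 5 non-neuronal types held 5 in 299 tests, against 9.23%. DESeq2 called 23 higher and 5 lower over the same types, and without D2 library 3 there were 63 higher and 11 lower calls. Medians of the chain ran from 0.17 in Exc-DG to 0.33 in Exc-CA1-Fras1 over the excitatory and inhibitory types. Oligodendrocyte precursors (NN-OPC) lay within that range, at 0.19 with 43 of 61 genes above 0, whereas CR-CR was at 0.03. Medians were 0.02 in astrocytes, 0.01 in oligodendrocytes and 0.01 in NN-VLMC. In microglia the median fell to -0.27, and 12 of 58 genes were above 0. Cox5a was called higher in 10 types, Ndufa13 and Uqcrq in 9, Cox7b in 8 and Sdhc in 7, and Ndufa13 was above 0 in all 17 types. In all 11 excitatory and inhibitory types the summed level was higher in both D2 libraries than in both B6 libraries. The margin was narrow in Inh-MGE, 2575 CPM in D2 library 2 against 2563 in B6 library 2, and in Inh-Lamp5, 2175 against 2141 in the same libraries. In Inh-MGE the summed level of 3 markers of that type also varied, at 1610 and 734 CPM in B6 and 1270 and 2139 CPM in D2. The part of such differences in cluster content was not tested. These types are parts of the same 4 libraries, so they are not independent observations. How often the summed levels of other sets of genes separate in this way was not computed.

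**Figure D4:**
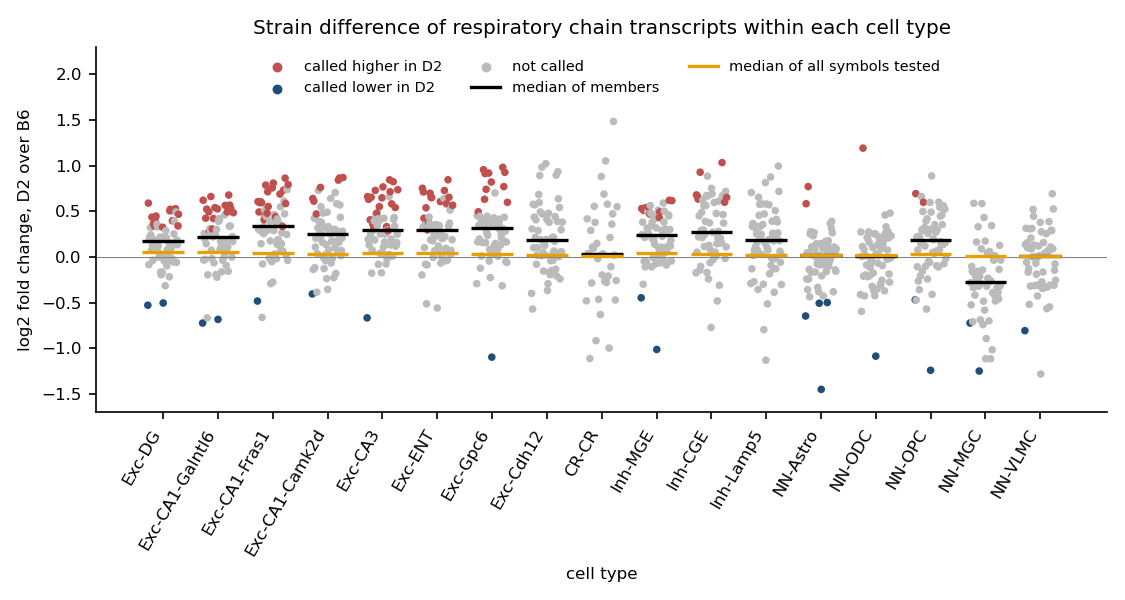
Log2 fold change of D2 over B6 for each respiratory chain gene within each of 17 cell types; red points were called higher in D2 and blue points lower, the black line is the median of the chain and the orange line that of all symbols tested. The black line lies above the orange one in every excitatory and inhibitory type and in NN-OPC, and falls to -0.27 in microglia (NN-MGC).

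The strain difference was then compared between neurons and non-neuronal types within libraries. For 11 of 63 genes it was more positive in neurons and for 0 it was less so (edgeR; 13 and 0 with DESeq2; 31 in either direction at an unadjusted p under 0.05), where 5.48% of all symbols differed in either direction. Ndufb4 (0.64 ± 0.17, adjusted p = 0.0137), Ndufa3 (0.59 ± 0.17, adjusted p = 0.025), Uqcrq (0.53 ± 0.14, adjusted p = 0.00916) and Sdhc (0.51 ± 0.15, adjusted p = 0.0324) had the widest differences. All 11 calls were lost without B6 library 3 and without D2 library 3, although the median of the chain was still above 0, at 0.16 and 0.20 against 0.26. B6 library 3 held the highest summed level in 4 of the 5 non-neuronal types, for example 3067 CPM in microglia against 2485 in B6 library 2 and 2270 and 2234 in D2. Its ribosomal protein transcripts were also the highest in all 5 non-neuronal types, at 6557 CPM in microglia against 5783, 4842 and 5638. The part of that library's RNA composition in the result was not tested.

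Cox4i1 and Ndufb4 were the only genes of the chain that were lower in D2 in more than 1 cell type. Cox4i1, the widespread form of the complex IV subunit that binds ATP as a regulator, was at 99.2 and 101.9 CPM in B6 and at 69.5 and 71.0 CPM in D2, a difference of -0.52 ± 0.07 (adjusted p = 1.31e-05). It was called lower in 10 of 17 types and lay below 0 in all 17, from -0.17 to -0.81. Ndufb4, an accessory subunit of the complex I membrane arm, was at 15.5 and 19.0 CPM in B6 and at 9.53 and 11.0 CPM in D2, a difference of -0.75 ± 0.12 (adjusted p = 9.89e-05). It was called lower in 7 of 16 types. In astrocytes the counts were 99 and 119 in B6 and 44 and 43 in D2, a difference of -1.45 ± 0.20 (adjusted p = 2.37e-07), whereas in Exc-CA3 they were 64 and 56 against 47 and 47, at 0.04 ± 0.22. All alternatives kept both genes lower in D2 with their calls in the summed comparison.

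Single-nucleus pipelines usually count a read only where it matches 1 gene, so the D2 counts on pseudogenes of these genes were examined next. B6 and D2 had been counted against gene lists that differ: the table gives 0 B6 counts for every one of the 35 pseudogenes of these genes that it lists, among 113 found in the annotation by sequence, while all 35 had D2 counts. Together they held 1582 D2 counts, 0.79% of the 200279 D2 counts of the genes themselves. Relative to its parent's D2 counts, the share was largest for Ndufb7 (17.5%, 242 counts, all of Gm13171), Ndufa5 (14.2%, 319 counts, Gm12529) and Cox5a (9.24%, 453 counts, Gm11633), and none of these parents was lower in D2. The difference of 0.59 for Cox5a does not include the reads of its copy. Ndufb4 had 37 such counts beside 985 of its own, and Cox4i1 had 15 beside 6764, where B6 had 1884 and 10957.

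Counts on a pseudogene do not show the reads that were discarded, so sequence identity was scanned as well. In 4 of 66 genes, Ndufs3, Ndufs5, Uqcrb and Cox6c, at least 10% of the 91-base windows in the last 500 exonic bases were found exactly in a pseudogene transcript, against 1.58% of 18530 protein-coding genes. None of the 4 was lower in D2, and their median strain difference was 0.06. Among all protein-coding genes tested, 29.3% of 222 genes over that limit were lower in D2 against 17.8% of those under it. The sequences set 2 copies beside their parents, with 91 bases of coding sequence each from GENCODE vM21 (GRCm38) and with the bases that differ in capitals. These stretches are closer than the copies as a whole. Identity was 93.0% over 444 aligned bases for Cox5a and Gm11633, and 80.6% over 443 for Cox4i1 and Gm14382. The parents are the gene with the most reads on a copy and a gene lower in D2 whose copy has diverged.
Cox5a, chr9:57521274-57532426, plus strand: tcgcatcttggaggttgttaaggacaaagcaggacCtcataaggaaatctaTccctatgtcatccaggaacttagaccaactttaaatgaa
Gm11633, chr11:97968792-97969235, plus strand: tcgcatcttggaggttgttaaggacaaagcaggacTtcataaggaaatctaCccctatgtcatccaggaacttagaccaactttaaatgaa
Cox4i1, chr8:120668222-120674207, plus strand: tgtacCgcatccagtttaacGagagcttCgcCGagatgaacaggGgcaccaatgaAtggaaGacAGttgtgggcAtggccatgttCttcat
Gm14382, chr7:100624518-100624954, plus strand: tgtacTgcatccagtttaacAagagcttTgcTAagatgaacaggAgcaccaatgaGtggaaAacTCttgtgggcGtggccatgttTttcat

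For Ndufb4, all 300 windows of 91 bases in the 390 coding bases occur in the processed pseudogene Ndufb4c, so no read inside the spliced coding sequence can be told apart between them. The last 500 exonic bases of Ndufb4 hold no shared window, but over the last 1000 bases a fraction of 0.34 of the windows was shared. Ndufb4c itself had 10 and 7 counts in D2 and 0 in B6. The Cox5a stretch differs from Gm11633 at 2 bases and the Cox4i1 stretch from Gm14382 at 12, with no shared window in the coding sequence of either. How many Ndufb4 reads were discarded for their match to Ndufb4c was not measured, since the deposited tables hold counted reads only.

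The mitochondrially encoded subunits of the same complexes, with 2 of ATP synthase, were set beside the nuclear ones after their values were seen. Of 13 genes, 12 were lower in D2 and 0 higher. In 6 of them at least 90% of the 91-base windows occur in annotated pseudogenes, and these 6 were lower in D2 by 3.16 to 9.72 on the log2 scale: mt-Co2 had 21159 and 31750 counts in B6 and 28 and 27 in D2, and mt-Co3 had 31004 and 44495 against 207 and 116. The other 7, with under 10% of windows shared, differed by -1.15 to -0.27. mt-Cytb, with no shared window, had 13397 and 21573 counts in B6 and 13820 and 8200 in D2. Gm28438, an unprocessed pseudogene at chr1:24612775-24613119 on the minus strand, had 0 B6 counts and 1514 and 830 D2 counts. In the last 500 exonic bases, no nuclear-encoded gene of the chain shared more than 39.3% of its windows (Ndufs3), and none differed between strains by more than 0.75 in either direction.

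Reads can also be shared with a gene model that spans another gene on the same strand. Cox4i1 lies wholly within such a model in GENCODE vM21, Gm20388, at chr8:119910841-124345722 on the plus strand. Gm20388 is not a symbol of the table, but Galnt2l, a symbol with 0 B6 counts, had 115158 and 95728 D2 counts, while Galnt2, at its downstream end, had 2071 and 2226 B6 counts and 78 and 68 D2 counts. No source used here pairs Galnt2l with Gm20388, and these genes were looked at after their values were seen. Of protein-coding genes inside the model, 25 of 34 on the strand of Cox4i1 were lower in D2, with a median of -0.89, against 5 of 30 on the other strand, with a median of 0.03. The split by strand was not complete. Emc8, on the other strand and overlapping the start of Cox4i1, had 1019 and 972 counts in B6 and 439 and 430 in D2. Over the genome, 47.8% of 134 protein-coding genes that lie on the same strand within a model without B6 counts were lower in D2, against 14.7% of 13033 genes touched by none. Models with no symbol among the counts, Gm20388 included, were taken as without B6 counts. The genome-wide share therefore includes genes of that locus and is not separate from it, and the share without them was not computed. Among the chain, 7 genes are touched by a model without B6 counts, of which Cox4i1 was the only one lower in D2, and 58 are not, of which 2 were lower and 24 higher. Ndufb9, with 62.9% of its span inside Gm49356 (8775 D2 counts, 0 in B6), differed by 0.17 and did not pass. How far lost reads account for the lower Cox4i1 and Ndufb4 counts in D2 was not tested.

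**Figure D5:**
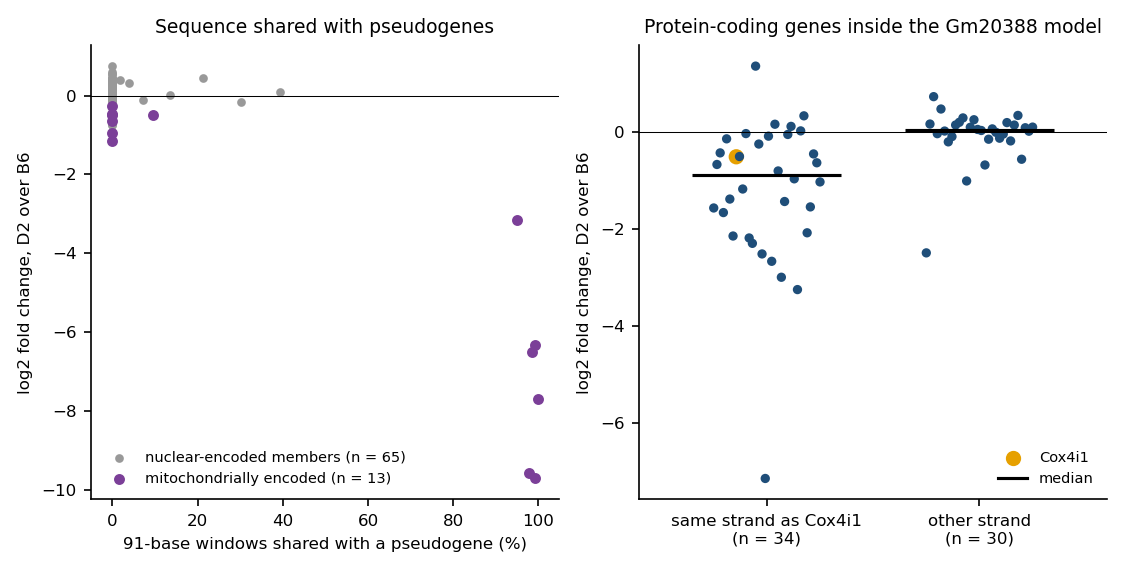
Left, log2 fold change of D2 over B6 against the percentage of 91-base windows of a gene's last 500 exonic bases that occur in a pseudogene, for 65 nuclear-encoded genes (grey) and 13 mitochondrially encoded genes (purple), with 6 purple points at 90% or more. Right, the same fold change for protein-coding genes inside the Gm20388 model by strand, with medians of -0.89 on the strand of Cox4i1 (orange) and 0.03 on the other strand; the lowest point of that panel, Il17c at -7.13, has 0 D2 counts and its fitted value depends on the prior count.

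Promoter accessibility was compared next in the snATAC-seq libraries (90684494 to 122322471 counts each). Peaks were counted without gene models, but the peak of each gene was chosen near an annotated transcript start. Of 63 genes with a peak within 500 bases of a transcript start, 5 had a peak more open in D2 and 0 less open, where 5.49% of all 300819 peaks were higher in D2 and 5.53% lower. The 5 were Ndufa1 (0.19 ± 0.06, adjusted p = 0.0327), Uqcrb (0.18 ± 0.06, adjusted p = 0.0354), Cox7c (0.18 ± 0.06, adjusted p = 0.0364), Ndufb9 (0.17 ± 0.06, adjusted p = 0.0414) and Ndufb5 (0.14 ± 0.05, adjusted p = 0.0438). By transcript, Ndufa1, Uqcrb and Ndufb5 were also called higher in D2, Ndufb9 differed by 0.17 ± 0.08 and Cox7c by -0.10 ± 0.07, and neither of the last passed. DESeq2 called 0 of the 63, 17 passed an unadjusted p under 0.05, and leaving out B6 library 2 or B6 library 3 gave 0 calls. The median over the 63 peaks was 0.08, with 53 above 0, against 0.00 for all peaks. All peaks include those away from transcript starts, and promoter peaks of other genes were not set apart. Whether the shift is particular to these genes was therefore not tested. Cox4i1 (0.09 ± 0.05, adjusted p = 0.325) and Ndufb4 (0.05 ± 0.05, adjusted p = 0.658), both lower in D2 by transcript, had promoter peaks at 32.9 and 32.8 CPM in B6 against 35.6 and 34.2 in D2, and at 26.9 and 25.8 against 27.3 and 27.3. The Cox4i1 peak also covers the annotated start of Emc8 on the other strand, so it is not that of Cox4i1 alone. Whether other peaks are shared with genes outside the chain was not examined. Over the 63 genes, the Spearman correlation between the strain differences of peak and transcript was 0.11, with peaks and transcripts measured in different libraries.

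Promoter sequences were searched for motifs known from this family. In the 54 promoters matched in RefSeq (GRCm38.p6; 250 bases before to 50 after the start), the NRF1 motif was present in 20.4% against 4.8% of 27025 promoters, the ETS motif CCGGAAG in 20.4% against 9.1%, the YY1 motif ATGGCGG in 14.8% against 4.2%, the SP1 motif GGGCGGG in 33.3% against 25.8%, and TATAAA in 11.1% against 14.2%, searched on both strands. NRF1 and the ETS factor GABP are the nuclear respiratory factors named for activating these genes. The median strain difference of transcripts was 0.19 with an NRF1 motif and 0.21 without. The 250 bases before the start of Ndufb4, which is lower in D2, Cox6a1, which is higher, Sdha, the flavoprotein of complex II, and Ndufa1, whose peak is more open in D2, are given 5′ to 3′ on the gene's strand, with capitals on the matched motifs.
Ndufb4, chr16:37654369-37654618, minus strand (NRF1 and SP1): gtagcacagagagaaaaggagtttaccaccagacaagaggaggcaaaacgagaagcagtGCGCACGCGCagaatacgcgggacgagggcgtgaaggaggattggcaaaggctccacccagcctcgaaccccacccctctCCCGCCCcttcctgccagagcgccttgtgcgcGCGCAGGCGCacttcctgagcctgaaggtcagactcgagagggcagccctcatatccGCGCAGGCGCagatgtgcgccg
Cox6a1, chr5:115348959-115349208, minus strand (NRF1, ETS and SP1): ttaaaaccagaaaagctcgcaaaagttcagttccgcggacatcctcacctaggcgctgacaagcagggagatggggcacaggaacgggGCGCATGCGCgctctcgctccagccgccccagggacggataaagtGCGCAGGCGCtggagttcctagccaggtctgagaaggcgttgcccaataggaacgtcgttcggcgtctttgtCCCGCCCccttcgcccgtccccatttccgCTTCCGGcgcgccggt
Sdha, chr13:74350241-74350490, minus strand (NRF1): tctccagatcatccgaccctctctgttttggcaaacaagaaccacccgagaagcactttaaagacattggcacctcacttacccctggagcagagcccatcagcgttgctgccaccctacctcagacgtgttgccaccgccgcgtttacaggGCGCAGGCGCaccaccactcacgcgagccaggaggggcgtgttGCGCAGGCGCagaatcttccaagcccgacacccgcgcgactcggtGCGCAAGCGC
Ndufa1, chrX:37191239-37191488, minus strand (YY1): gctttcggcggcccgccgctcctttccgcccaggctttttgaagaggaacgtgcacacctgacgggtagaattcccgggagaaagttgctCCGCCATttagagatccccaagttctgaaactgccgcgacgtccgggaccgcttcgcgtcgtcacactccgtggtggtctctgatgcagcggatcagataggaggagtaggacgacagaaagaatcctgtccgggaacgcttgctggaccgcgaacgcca

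Genes that act with the chain were compared between strains on the same counts. The background was 30.7% of all symbols higher in D2 and 16.0% lower. Among symbols counted in both strains it was 15.4% and 16.4%. Of 42 assembly factors, 13 were higher in D2 and 5 lower, with a median of 0.11. One of them, Cox16, had 10878 and 11975 counts in B6 and 387 and 317 in D2. Of 19 ATP synthase genes 11 were higher and 3 lower, including Atp5o, with 1273 and 1486 counts in B6 and 24688 and 18858 in D2, and the symbols Atp5f1 and Atp5pb, which name 1 gene and were each counted in 1 strain. Of 14 regulators, Esrra, the receptor that works with PGC-1 alpha (0.58 ± 0.08, adjusted p = 3.75e-05), and Tfb1m, a mitochondrial rRNA methyltransferase (0.42 ± 0.12, adjusted p = 0.011), were higher and Esrrg was lower (-0.34 ± 0.07, adjusted p = 0.00145). Ppargc1a differed by 0.01 ± 0.07. Of 83 ribosomal protein genes, another family rich in pseudogenes, 27 were lower and 13 higher with a median of -0.05.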

How the data were processed

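Nuclei of the ventral hippocampus had been sequenced for RNA (4 libraries) and for open chromatin (4 libraries). The authors aligned RNA reads with Cell Ranger 6.0.2, introns retained, to mm10 for B6 and to mm10 carrying D2 variants for D2, named cell types with Seurat 4.0.5 and deposited raw counts summed by cell type and library. Doublets had been removed with DoubletFinder before deposit, and no further doublet filter or correction for free RNA was applied to the summed counts. They aligned snATAC-seq reads with Cell Ranger ATAC 2.0.0, called peaks per sample with MACS and counted fragments over the merged peaks. The GENCODE release used for counting is not given in the sources used here. The 16 methylation samples were not used here.

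The deposited counts of 33902 symbols in 17 cell types and of 300819 peaks in 15 cell types were tested with edgeR 4.0.16 (R 4.3.3), quasi-likelihood test with TMM scaling and Benjamini-Hochberg adjustment over all features tested, at an adjusted p of 0.05. Strains were compared on counts summed over cell types and within each cell type, and cell types in 1 fit over 68 columns with library as a term. With 2 libraries against 2, an exact permutation test (two-sided) cannot go below 0.33. CPM values were computed from the deposited counts with edgeR library sizes. DESeq2 1.42.0, other scaling, no filter, leaving out each library, a replicate block and subsets of types or strains were the alternatives. Members, lists and comparisons were chosen with earlier results of these data known. Full values were given for up to 6 members per direction with the widest change, of those called between strains with both D2 libraries on one side, up to 4 in each direction per cell type contrast, the complex IV isoforms and complex II; members named for pseudogenes, core and accessory subunits of complex I and the loci around Cox4i1 were added after values were seen. Pseudogenes were matched with blast 2.17.0 at 80% identity over 50% of the length, on GENCODE vM21. Tested on simulated data with 200 genes changed 2-fold, the summed strain fit recovered 76.5% over 25728 symbols. Libraries of a strain differed beyond counting noise (chi-square per degree of freedom 10.5 in B6 and 6.36 in D2).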

Additional observations from a re-analysis of the deposited data

Results flagged for a closer look

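For 11 genes the strain difference itself differed between neurons and non-neuronal types in the edgeR interaction test, always more positive in neurons. On the log2 scale the values were 0.64 for Ndufb4, 0.59 for Ndufa3, 0.53 for Uqcrq, 0.51 for Sdhc, 0.45 for Ndufa5, 0.43 for Cox6a1, 0.40 for Ndufa4, 0.37 for Cox7a2, 0.34 for Cox6c, 0.34 for Cox7b and 0.24 for Cox7c. Ndufb4 is the one of the 11 that was lower in D2 in the summed comparison. None of the 11 was called without B6 library 3 or without D2 library 3, and 5 genes were called without D2 library 2. In the same test 16 of 81 ribosomal protein genes and 6 of 19 ATP synthase genes were also more positive in neurons, and 0 of either list were less so.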

How the results depend on the processing

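Of 131 recomputed counts, 100 were within 1.5 times the reported count, 19 moved further on leaving out a library and 12 under other settings. Of 411 recomputed values of named genes, 343 kept their call, 68 lost it and 0 changed direction. DESeq2 gave 5 lower and 23 higher tests within cell types and 0 promoter peaks. Without a filter on low counts, 2 genes were lower in Exc-DG. B6 libraries alone gave 3 genes higher in neurons and 2 lower in Exc-DG. D2 libraries alone gave 3 higher in neurons, 0 higher in excitatory neurons, 5 higher in Exc-DG and 10 higher in Inh-MGE. With 60-base windows, or counting any shared window, 7 genes shared sequence with pseudogenes. The cause of these shifts was not tested.

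Leaving out 1 library at a time gave 2 to 3 lower and 13 to 29 higher genes between strains, and 11 to 30 lower and 63 to 116 higher tests within types. The ranges were 3 to 5 higher and 44 to 52 lower in neurons, 0 to 1 higher and 43 to 49 lower in excitatory neurons, 5 to 9 higher and 2 to 6 lower in Exc-DG, 8 to 16 higher in Inh-MGE, 0 to 13 for the interaction and 0 to 12 for promoter peaks. The lowest counts between strains and of higher tests within types came without D2 library 3. Libraries with the same number did not deviate together (correlation 0.005), and a replicate block gave 3 lower and 26 higher genes between strains, 19 and 140 tests within types and 6 promoter peaks. In simulated data for 2 cell types, which differ in depth and in spread between libraries, a 2-fold change was recovered in 45% of genes in microglia and 72% in Exc-CA3.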

Other observations

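Of 42 assembly factors of the chain, 12 were higher in neurons than in non-neuronal types and 18 lower, with a median of -0.15, where 34.6% of all symbols were higher and 34.8% lower. The regulators Esrrg and Ppargc1a were higher in neurons by 2.47 ± 0.08 (adjusted p = 4.72e-37, edgeR) and 1.23 ± 0.09 (adjusted p = 2.75e-20). In Exc-DG, by contrast with its ribosomal and mitochondrially encoded transcripts, Esrrg (-0.76 ± 0.09), Ppargc1a (-0.45 ± 0.07) and Esrra (-0.40 ± 0.10) were all lower than in the other excitatory types.

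The 12S and 16S ribosomal RNA genes of the mitochondrial genome, mt-Rnr1 and mt-Rnr2, had 0 counts in both B6 libraries and 68438 and 42479, and 175209 and 117696, in the D2 libraries.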
